A study of Mus musculus with 6 samples.

Results

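Expression of 9 genes of amino acid uptake and asparagine synthesis was examined in mouse osteoblasts (OBs), the cells that lay down bone matrix. The genes were *Slc1a4*, *Slc1a5*, *Slc3a2*, *Slc7a1*, *Slc7a5*, *Slc7a11*, *Slc38a1*, *Slc38a2* and *Asns*. They were taken by symbol from a list made with earlier results of these data known, and are 9 of the 23284 genes listed. All 9 were found in each sample, and all 9 passed the filter of a mean above 0.1 FPKM (fragments per kilobase of transcript, scaled to the reads mapped in a sample).

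The OBs came from male *Col2.3*-ECFP mice aged 12 to 16 weeks, in which a type I collagen promoter drives a cyan fluorescent protein. Ectopic bone was induced in both groups by a collagen sponge carrying 2.5 μg of BMP-2, a bone morphogenetic protein. Fluorescent cells were sorted, without CD45+ and dead cells, on day 10 (n = 3) or day 14 (n = 3) after implantation. The question was how gene expression in OBs differed between these days, over which the shape of the cells changed. Tissue was treated with collagenase 1 time on day 10 and 2 times on day 14, and the number of treatments and the day cannot be told apart. The labels call the samples biological replicates but do not tie them to animals, so p-values measure only the spread between these samples. Sample titles place replicates 1, 2 and 3 of the later group on day 14, whereas their free-text descriptions read day 14, 15 and 16.

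Depth was estimated from the steps between low FPKM values as 4550091 to 7776817 reads per sample. At that depth 3 reads on 1000 bases correspond to 0.386 to 0.659 FPKM, which covers counting error only. The 7 OB markers (*Dlx5*, *Runx2*, *Sp7*, *Alpl*, *Col1a1*, *Ibsp* and *Bglap2*) were above 0 in all samples, with summed levels of 28368 to 54192 FPKM on day 10 and 15669 to 38269 FPKM on day 14. Taken singly, 7 of 7 had a lower mean log2 level on day 14 (53.5% of all genes tested), 5 of them over 2-fold (8.39%). Their median log2 fold change was −1.69, and 0 of the 7 had an adjusted p under 0.05 from limma. Across genes, replicate 1 of day 14 was the sample least like the others of its group. The Pearson r of its log2 levels was 0.883 with replicate 2 and 0.900 with replicate 3 of day 14, against 0.930 between those replicates. In the sums of chondrocyte and myeloid markers, replicate 2 of day 14 stood apart within its group. Its summed level of 10 chondrocyte markers was 2391 FPKM, against 228 and 192 FPKM in day 14 replicates 1 and 3 and 755 to 1518 FPKM on day 10. Its summed level of 10 myeloid markers was 20.4 FPKM, against 269 and 628 FPKM in day 14 replicates 1 and 3 and 36.9 to 164 FPKM on day 10. Of these markers *Matn1* was listed at 0 in 3 samples, and *Adgre1* and *Fcer1g* in replicate 2 of day 14. For differences that leaving out this or another sample moved by over 1.5 times, a value without 1 sample is given.

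Cells import most amino acids through carriers of the solute carrier (Slc) families, and growing or secreting cells need a large supply of them. *Slc1a5* and *Slc1a4* encode exchangers of small neutral amino acids, of which *Slc1a5* takes up glutamine, and *Slc38a1* and *Slc38a2* encode sodium-coupled carriers that concentrate glutamine and alanine in the cell. *Slc3a2* encodes the heavy chain that brings several light chains to the cell surface, among them *Slc7a5* for large neutral amino acids and *Slc7a11*, which exchanges cystine for glutamate, while *Slc7a1* carries arginine and lysine on its own. *Asns* encodes asparagine synthetase, which makes asparagine from aspartate with the amide nitrogen of glutamine. OBs take up glutamine and build collagen, a protein rich in glycine and proline, and the transcription factor ATF4 is known in OBs for driving amino acid import and synthesis genes when amino acids run short.

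ATF4 acts with C/EBP proteins on composite elements with the core TGATGNAA, and this core is shown here for the genes whose promoters hold it because several of the gene groups below are known ATF4 targets. In the RefSeq promoter set (GRCm38.p6, 250 bases before to 50 bases after a gene's start), 6 of the 9 genes were matched, and the core was searched on both strands as the single motif. It was found for *Asns*, *Slc7a11* and *Slc1a4*, and was not found in the windows of *Slc3a2*, *Slc7a1* and *Slc38a2*. *Slc1a5*, *Slc7a5* and *Slc38a1* were not matched. Of all 32851 promoters in the set, 3.97% held the core. Stretches around the matches are printed in the direction of the gene, with the matching letters in capitals. A reverse match reads TTNCATCA. All 3 member genes and *Pycr1* lie on the minus strand and *Chac1* on the plus strand. A match is a description of letters and not evidence of binding.
Asns, chr6:7693216-7693241: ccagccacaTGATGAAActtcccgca
Slc7a11, chr3:50443629-50443703: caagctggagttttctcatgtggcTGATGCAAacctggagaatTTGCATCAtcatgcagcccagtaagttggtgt
Slc1a4, chr11:20332710-20332741: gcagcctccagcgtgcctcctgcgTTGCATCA
Pycr1, chr11:120643820-120643875: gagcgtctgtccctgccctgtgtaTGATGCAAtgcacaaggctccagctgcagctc
Chac1, chr2:119351025-119351080: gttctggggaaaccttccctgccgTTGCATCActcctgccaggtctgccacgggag

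The *Slc7a11* window held 2 matches in opposite directions, starting 66 and 47 bases before the start. The match of *Asns* began 23 bases before the RefSeq start and that of *Slc1a4* began 4 bases before it. By the GENCODE positions given below, however, *Asns* starts further out, at 7693254, so its match lies inside the gene. The match of *Slc1a4* spans the GENCODE start of that gene, at 20332713. *Pycr1*, a proline synthesis gene, and *Chac1*, a stress gene that breaks down glutathione, are shown for comparison because their values are described with those of *Asns*. Among the wider gene groups, the core was found in 7 of 20 matched genes of the amino acid response, a list that includes known ATF4 targets. It was found in 5 of 12 matched tRNA synthetases, 1 of 4 proline genes and 0 of 14 serine and one-carbon genes. The other groups had 1 of 17 glutamine and glutamate enzymes, 1 of 22 other plasma membrane transporters and 0 of 10 lysosomal and mitochondrial carriers. They also had 1 of 9 glutathione and NRF2 genes and 1 of 29 mTORC1 genes. These counts are per gene, some with several promoters, whereas the share over the whole set is per promoter.

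The 9 genes ranged from barely detected to abundant. *Slc38a2* had the highest mean level over the 6 samples (81.1 FPKM), followed by *Slc3a2* (69.7 FPKM), *Slc1a5* (38.7 FPKM), *Asns* (24.9 FPKM), *Slc1a4* (12.2 FPKM), *Slc7a5* (10.6 FPKM), *Slc7a1* (4.16 FPKM), *Slc7a11* (0.548 FPKM) and *Slc38a1* (0.454 FPKM). FPKM is a level per length, so these genes can be set in order. *Slc38a2* and *Slc3a2* overlapped, as did neighbours from *Slc1a5* down to *Slc7a5*, and so did *Slc7a11* and *Slc38a1*. The samples did not overlap between *Slc3a2* and *Slc1a5*, between *Slc7a5* and *Slc7a1*, or between *Slc7a1* and *Slc7a11*. The order of *Asns* and *Slc1a5* was not the same on both days. On day 10 their means were 31.7 and 31.5 FPKM with overlapping samples, and on day 14 all samples of *Slc1a5* were above all samples of *Asns* (means of 45.9 and 18.2 FPKM).

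**Figure D1:**
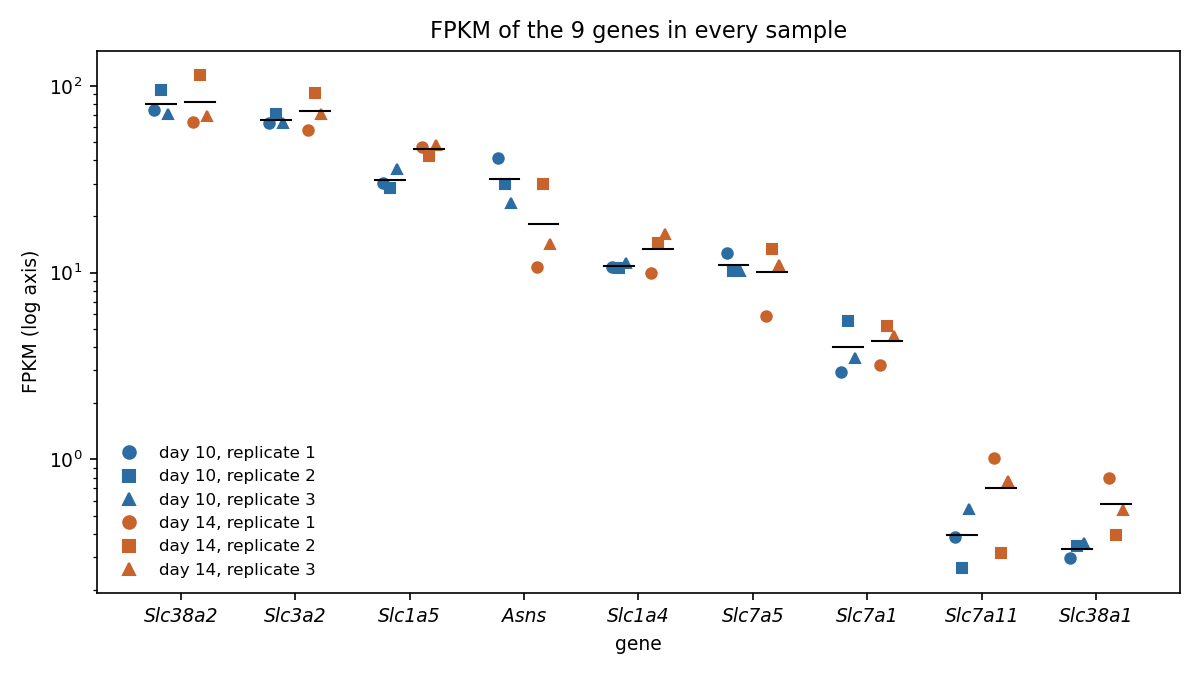
FPKM of the 9 genes in each of the 6 samples on a log axis, with day 10 in blue, day 14 in orange, a marker shape for each replicate and a black line at the mean of each day. The days are apart for *Slc1a5*, whereas for *Asns* replicate 2 of day 14 (29.8 FPKM) lies among the day 10 samples (23.7 to 41.3 FPKM).

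Between the days, the contrast within the set was that *Slc1a5*, the glutamine importer, had higher levels on day 14, whereas *Asns*, which spends glutamine nitrogen, had a lower mean on day 14. For the other 7 genes limma's unadjusted p was above 0.05. Across the 19526 genes tested with Benjamini-Hochberg adjustment, limma's adjusted p was under 0.05 for 0.0154%, and for 0 of the 9 members. At an unadjusted p under 0.05, 1 gene was higher on day 14 (*Slc1a5*, against 5.60% of all genes tested) and 1 was lower (*Asns*, against 4.40%). None of the 9 was over 2-fold, as 5.25% of all genes tested were upwards and 8.39% downwards. The mean was higher on day 14 for 7 of 9 genes (46.5% of all genes tested) and the median log2 fold change of the 9 was 0.14, against −0.04 over all genes tested. Without replicate 2 of day 14 the mean was higher for 4 of 9 genes and the median was −0.01. The samples of the days did not overlap for 2 genes, both higher on day 14 (*Slc1a5* and *Slc38a1*, against 7.59% of all genes tested). In sorted bulk samples, fewer cells of a type and less RNA per cell cannot be told apart.

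**Figure D2:**
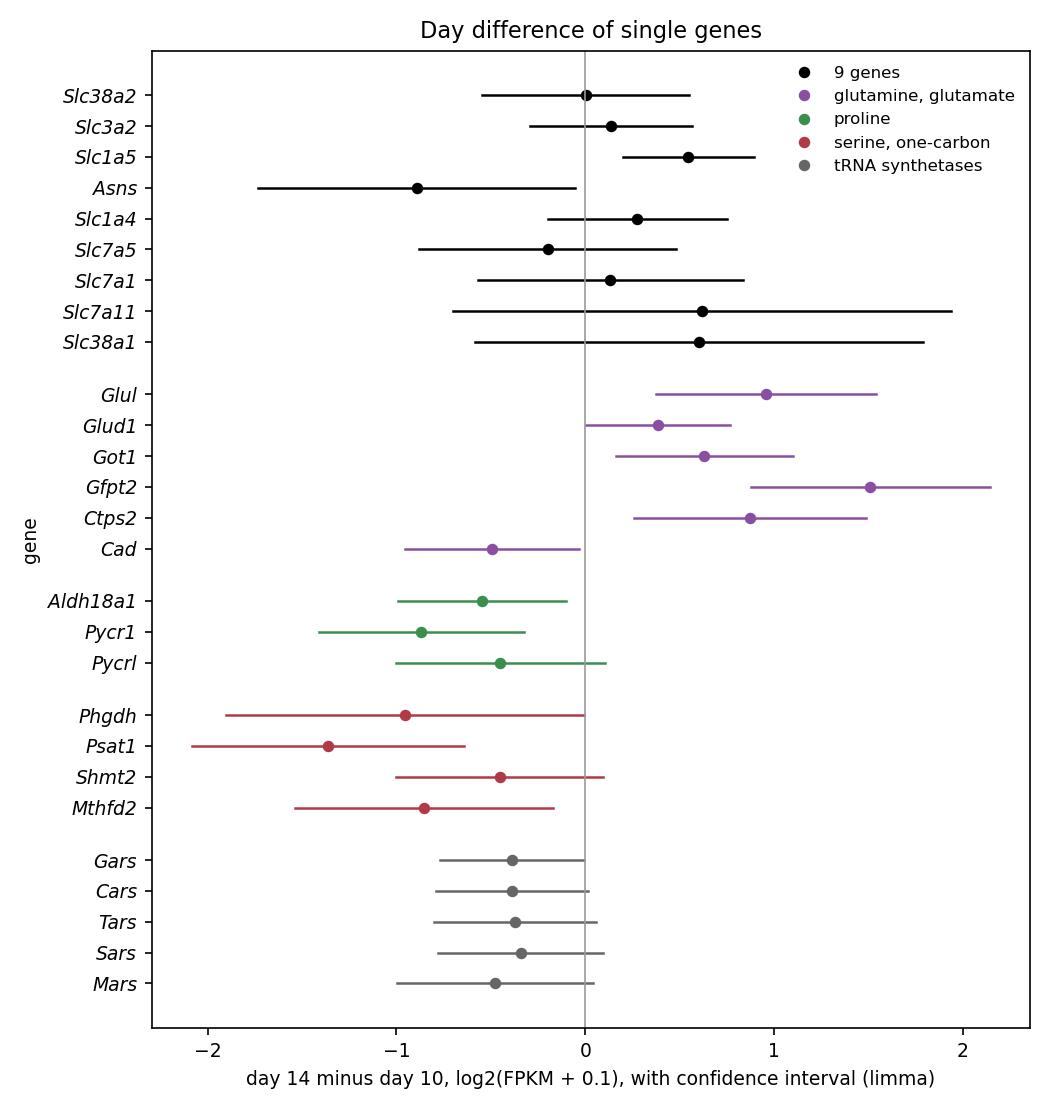
Difference between day 14 and day 10 on the log2(FPKM + 0.1) scale with its 95% interval from limma, for the 9 genes in black and for some genes of 4 related groups in colour. *Cad*, *Mthfd2*, *Pycrl* and *Shmt2* were added after their values were seen, and *Mars* as the gene most like *Asns*. *Slc1a5* (0.55) lies to the right of 0 and *Asns* (−0.89) to the left. The glutamine genes drawn, apart from *Cad*, lie on the side of *Slc1a5*, and the proline, serine and tRNA synthetase genes drawn on that of *Asns*. In the full groups, 5 of 22 glutamine and glutamate genes were lower on day 14. Of the other groups, 1 of 6 proline, 5 of 15 serine and one-carbon and 2 of 20 synthetase genes were higher.

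*Slc1a5* (chr7:16781340-16798274, plus strand, mm10) was the member with the smallest p. Its level was 30.3, 28.3 and 35.97 FPKM in day 10 replicates 1, 2 and 3, and 47.1, 42.1 and 48.5 FPKM in day 14 replicates 1, 2 and 3. All 3 day 14 samples were above all 3 day 10 samples, and the lowest of day 14 was replicate 2. The mean was 31.5 ± 3.99 FPKM (SD, n = 3) on day 10 and 45.9 ± 3.34 FPKM (SD, n = 3) on day 14, a 1.46-fold higher level. On the log2 scale the difference was 0.55 (standard error 0.15, 95% interval 0.20 to 0.89, unadjusted p = 0.00658 and adjusted p = 0.327 from limma). The two-sided exact permutation test gave p = 0.1, the smallest that 3 samples against 3 allow. Over 14 other settings the log2 fold change of *Slc1a5* lay between 0.47 and 0.64, with an unadjusted p under 0.05 in all 14, and its adjusted p ran from 0.208 to 0.976. Summed osteoclast and endothelial markers were also higher in all day 14 samples. The sum of 7 osteoclast genes was 446 to 488 FPKM on day 10 and 627 to 676 FPKM on day 14. That of 8 endothelial genes was 2.197 to 3.79 and 4.07 to 7.86 FPKM. Taken singly, 2 of the 7 osteoclast genes had a higher and 5 a lower mean log2 level on day 14. For the endothelial genes 8 of 8 were higher (46.5% of all genes tested). Among the genes of both lists, *Dcstamp*, *Oscar*, *Emcn* and *Cldn5* were at 0 in at least 1 sample. The part of these cells in the difference of *Slc1a5* was not tested.

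*Slc1a4* (chr11:20302180-20332713, minus strand), which exchanges alanine, serine, cysteine and threonine, was less abundant than *Slc1a5* in all 6 samples. It had 10.8, 10.6 and 11.2 FPKM on day 10 and 9.94, 14.4 and 16.1 FPKM on day 14. The day 14 samples lay on either side of the narrow day 10 range, with replicate 1 below it. Its log2 fold change was 0.28 (standard error 0.21, 95% interval −0.20 to 0.75, adjusted p = 0.729 from limma). It was 0.48 without replicate 1 of day 14 (unadjusted p = 0.0119 and adjusted p = 0.265 from limma) and 0.13 without replicate 3 of day 14. The ratio of *Slc1a5* to *Slc1a4* was 2.66 to 3.20 on day 10 and 2.93 to 4.74 on day 14, with overlap between the days.

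The sodium-coupled glutamine carriers of the Slc38 family lie beside each other on chromosome 15 (*Slc38a1* at chr15:96571418-96642913 and *Slc38a2* at chr15:96687392-96699730, both minus strand), and their levels were far apart. *Slc38a2* had 74.5, 95.0 and 70.6 FPKM on day 10 and 64.1, 114 and 68.7 FPKM on day 14. Replicate 2 was the highest of its day on both days, while the other day 14 samples were below all day 10 samples. Its mean was 80.0 ± 13.1 FPKM (SD, n = 3) on day 10 and 82.2 ± 27.5 FPKM (SD, n = 3) on day 14, with a log2 fold change of 0.00 (95% interval −0.55 to 0.55). Its sign depended on the scaling, and without replicate 2 of day 14 the log2 fold change was −0.26 (unadjusted p = 0.192 from limma).

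*Slc38a1* had 0.298, 0.345 and 0.356 FPKM on day 10 and 0.798, 0.393 and 0.537 FPKM on day 14. The lowest day 14 sample was just above the highest day 10 sample. These levels are near the depth limit, with an estimated 10.3 to 26.7 reads per sample if all fell on the longest transcript. The log2 fold change was 0.60 (standard error 0.52, 95% interval −0.58 to 1.79, adjusted p = 0.775 from limma). With a pseudocount of 1 it was 0.23, and without replicate 1 of day 14 it was 0.38. In each sample *Slc38a2* was between 80.4 and 289 times as abundant as *Slc38a1* on the FPKM scale.

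*Slc3a2* (chr19:8706882-8723369, minus strand), the shared heavy chain, had 63.3, 70.8 and 63.6 FPKM on day 10 and 58.2, 92.0 and 70.6 FPKM on day 14. Day 14 held both the lowest and the highest sample. The difference was 0.14 on the log2 scale (standard error 0.19, 95% interval −0.29 to 0.56, adjusted p = 0.874 from limma), and without replicate 2 of day 14 it was −0.04.

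Its light chain *Slc7a5* (chr8:121881150-121907694, minus strand), an importer of leucine and other large neutral amino acids, had 12.7, 10.2 and 10.2 FPKM on day 10 and 5.89, 13.4 and 11.04 FPKM on day 14. Replicate 1 of day 14 was the lowest sample and replicate 2 of day 14 the highest. The log2 fold change was −0.20 (standard error 0.30, 95% interval −0.88 to 0.48, adjusted p = 0.886 from limma), and without replicate 1 of day 14 its sign turned, to 0.15. *Slc3a2* was 4.98 to 6.97 times as abundant as *Slc7a5* on day 10 and 6.40 to 9.88 times as abundant on day 14.

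*Slc7a11* (chr3:49892526-50443614, minus strand), the cystine and glutamate exchanger, had 0.384, 0.262 and 0.541 FPKM on day 10 and 1.02, 0.318 and 0.768 FPKM on day 14. Replicates 1 and 3 of day 14 were above all day 10 samples, and replicate 2 was not. With an estimated 12.9 to 48.8 reads per sample on the longest transcript, this gene too was near the depth limit. Its log2 fold change was 0.62 (standard error 0.58, 95% interval −0.70 to 1.93, adjusted p = 0.793 from limma), and with a pseudocount of 1 it was 0.27. It was 1.03 without replicate 2 of day 14 (adjusted p = 0.514 from limma), 0.32 without replicate 1 of day 14 and 0.41 without replicate 2 of day 10.

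The light chains expressed with *Slc3a2* were mainly others than *Slc7a5* and *Slc7a11*. Of the summed FPKM of *Slc7a5*, *Slc7a6*, *Slc7a7*, *Slc7a8*, *Slc7a10* and *Slc7a11*, the cationic and neutral amino acid exchangers *Slc7a6* and *Slc7a7* took 31.5% to 34.8% and 28.2% to 38.6% per sample. *Slc7a5* took 13.4% to 27.2%, *Slc7a8* (a further large neutral amino acid exchanger) 8.59% to 12.7% and *Slc7a11* 0.595% to 2.32%. *Slc7a6* had a mean of 15.4 FPKM on day 10 and 15.0 FPKM on day 14, and *Slc7a8* had 5.01 and 5.02 FPKM. The sum over the light chains was 40.7 to 52.3 FPKM, and *Slc3a2* was 1.23 to 1.76 times that sum (two-sided exact permutation test between days, p = 0.4).

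**Figure D3:**
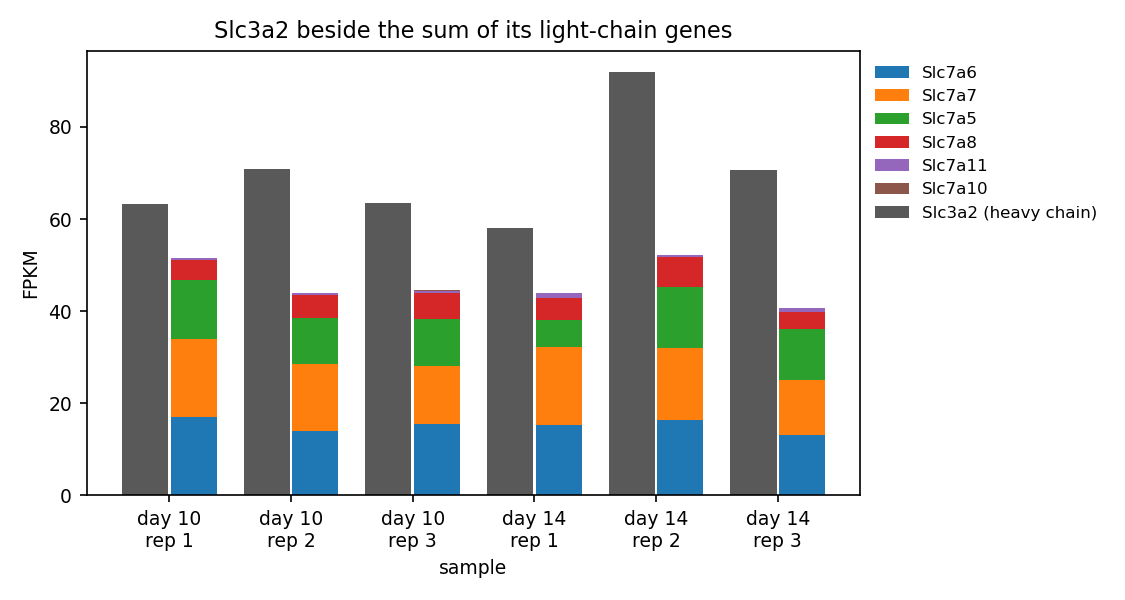
FPKM of *Slc3a2* (grey bars) beside the stacked FPKM of 6 light-chain genes in each sample, on an axis that starts at 0. The heavy chain was above the sum of its light chains in all 6 samples, and *Slc7a6* and *Slc7a7* made up most of each stack.

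*Slc7a1* (chr5:148327410-148399904, minus strand), the arginine and lysine carrier, had 2.96, 5.52 and 3.50 FPKM on day 10 and 3.20, 5.17 and 4.59 FPKM on day 14. The ranges of the days were almost the same, and replicate 2 was the highest on each day. The log2 fold change was 0.13 (standard error 0.31, 95% interval −0.57 to 0.83, adjusted p = 0.937 from limma), and it was −0.05 without replicate 1 of day 10 and −0.01 without replicate 2 of day 14. *Slc7a2*, another carrier of arginine and lysine that was singled out after its values were seen, was more abundant, with 10.4, 9.24 and 15.4 FPKM on day 10 and 22.6, 12.02 and 24.6 FPKM on day 14. Replicate 2 of day 14 lay within the day 10 range of *Slc7a2* (log2 fold change 0.72, unadjusted p = 0.0447 and adjusted p = 0.485 from limma).

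*Asns* (chr6:7675169-7693254, minus strand) had 41.3, 30.0 and 23.7 FPKM on day 10 and 10.7, 29.8 and 14.2 FPKM on day 14. Replicates 1 and 3 of day 14 were the lowest samples, while replicate 2 of day 14 was above the lowest day 10 sample, so the days overlapped. The mean was 31.7 ± 8.93 FPKM (SD, n = 3) on day 10 and 18.2 ± 10.2 FPKM (SD, n = 3) on day 14. On the log2 scale the day 14 mean differed by −0.89 (standard error 0.37, 95% interval −1.74 to −0.05, unadjusted p = 0.0400 and adjusted p = 0.469 from limma), and the two-sided exact permutation test gave p = 0.2. Over the 14 other settings the log2 fold change was between −1.32 and −0.58, the unadjusted p was under 0.05 in 8 of them and the adjusted p ran from 0.151 to 0.976. It was −1.32 without replicate 2 of day 14 (adjusted p = 0.151 from limma, or 0.0837 with the filter on low values reapplied to the 5 samples left) and −0.58 without replicate 1 of day 14 (unadjusted p = 0.201 from limma).

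*Asns* varied over the 6 samples together with OB and cartilage markers, and their part in its day difference was not tested. *Sp7*, an OB transcription factor, had 73.7, 51.1 and 40.1 FPKM on day 10 and 9.79, 27.9 and 4.09 FPKM on day 14. *Col2a1*, the main cartilage collagen, had 373, 321 and 189 FPKM on day 10 and 12.1, 688 and 8.75 FPKM on day 14. For both markers, as for *Asns*, replicate 2 was the highest sample of day 14. As a description over 6 samples that share their libraries with all other genes, the Pearson r of *Asns* was 0.87 with *Sp7*, 0.92 with *Col2a1* and −0.76 with the myeloid marker *Lyz2*. It was −0.13 with *Atf4*. The r of *Asns* was above 0 with 7 of 7 OB markers, 10 of 10 chondrocyte markers and 0 of 10 myeloid markers, against 44.4% of all genes. It was above 0 with 3 of 7 osteoclast markers and 1 of 8 endothelial markers. *Slc1a5*, by contrast, had an r of −0.89 with *Sp7*, −0.72 with *Col2a1* and 0.39 with *Lyz2*.

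The gene most like *Asns* in its pattern over the 6 samples, among 11162 genes with a mean of at least 1 FPKM, was *Mars*, the cytosolic methionyl-tRNA synthetase (r = 0.996), and 151 of these genes had an r above 0.95. *Mars* had 28.7, 24.6 and 21.5 FPKM on day 10 and 14.5, 24.5 and 15.7 FPKM on day 14, with the same samples low as for *Asns*. The nearest pattern to *Slc1a5* was that of *Nfkbia*, an inhibitor of NF-kB (r = 0.997). For the other members it was *S100a10* for *Slc1a4*, *Rnf215* for *Slc3a2*, *Cldn10* for *Slc7a1*, *Bpifb1* for *Slc7a5*, *Bbs9* for *Slc7a11*, *Flt1* for *Slc38a1* and *Fat1* for *Slc38a2*, with r from 0.989 to 0.998. With 6 samples and so many genes, a nearest gene with a high r was found for each member.

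Among the members themselves, *Slc3a2* was closest to *Slc38a2* (r = 0.88) and *Slc7a1* (r = 0.76). Each of these genes had its highest day 14 value in replicate 2, as had *Slc7a5*. The r of *Slc3a2* with its partner *Slc7a5* was 0.66, which ranked 1456 among all genes tested, and with *Slc7a11* it was −0.58. *Asns* was closest to *Slc7a5* (r = 0.78). It had an r of −0.81 with *Slc1a5*, −0.90 with *Slc7a11* and −0.95 with *Slc38a1*. No test was made of these values, which rest on 6 samples with the difference between days included.

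The enzymes that use or make glutamine and glutamate had higher means on day 14 for 17 of 22 genes (46.5% of all genes tested), with a median log2 fold change of 0.27 (−0.04 over all genes tested), or 0.15 without replicate 2 of day 10. By limma's adjusted p, 0 of the 22 passed 0.05. At an unadjusted p under 0.05, 6 genes were higher (5.60% of all genes tested), among them *Gfpt2*, *Glul*, *Ctps2*, *Got1* and *Glud1*, and 1 was lower (*Cad*, against 4.40%). The days did not overlap for 8 higher genes (7.59% of all genes tested) and 1 lower gene (6.67%). *Gfpt2*, which starts hexosamine synthesis with glutamine nitrogen, had the smallest p of all genes in the lists examined here. It had 68.0, 136 and 111 FPKM on day 10 and 228, 301 and 347 FPKM on day 14, without overlap and with a difference of 1.51 on the log2 scale (standard error 0.28, limma's adjusted p = 0.271). Its unadjusted p was under 0.05 in 14 of 14 other settings.

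*Glul*, the synthetase that makes glutamine from glutamate and ammonia, had 12.1, 16.1 and 15.1 FPKM on day 10 and 25.1, 21.1 and 41.1 FPKM on day 14 (log2 fold change 0.96, adjusted p = 0.319 from limma). Each day 14 sample of *Glul* was above each day 10 sample, with replicate 3 of day 14 the highest, and its unadjusted p was under 0.05 in 14 of the 14 other settings.

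Further along the pathway, *Glud1*, the mitochondrial glutamate dehydrogenase, had means of 29.2 ± 0.984 FPKM (SD, n = 3) on day 10 and 38.6 ± 6.66 FPKM (SD, n = 3) on day 14, with an adjusted p of 0.495 from limma. *Got1*, the cytosolic aspartate aminotransferase, had 43.0 ± 9.41 and 66.0 ± 10.0 FPKM (SD, n = 3 each, adjusted p = 0.375 from limma), and *Ctps2*, a CTP synthase, had 4.68 ± 1.56 and 8.43 ± 1.35 FPKM (SD, n = 3 each, adjusted p = 0.36 from limma). The days did not overlap for these 3 genes. *Cad*, which starts pyrimidine synthesis with glutamine nitrogen and was named after its values were seen, went the other way, with 10.7 to 11.5 FPKM on day 10 and 6.05 to 8.96 FPKM on day 14 (log2 fold change −0.49, or −0.31 without replicate 1 of day 14, adjusted p = 0.465 with all samples from limma).

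Proline synthesis genes, which build proline from glutamate, had lower means on day 14 for 5 of 6 genes (53.5% of all genes tested), with a median log2 fold change of −0.43. *Pycr1*, the mitochondrial reductase of the last step, had 34.4, 27.3 and 19.3 FPKM on day 10 and 12.4, 17.4 and 13.7 FPKM on day 14. No day 14 sample reached the lowest day 10 value (log2 fold change −0.87, standard error 0.24, unadjusted p = 0.00598 and adjusted p = 0.319 from limma). *Aldh18a1*, which makes the first intermediate, had 40.2 ± 7.07 FPKM (SD, n = 3) on day 10 and 27.5 ± 4.67 FPKM (SD, n = 3) on day 14, also without overlap (log2 fold change −0.55, adjusted p = 0.407 from limma). These 2 of the 6 genes had an unadjusted p under 0.05 (4.40% of all genes tested in this direction).

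Serine, glycine and one-carbon genes had lower means on day 14 for 10 of 15 genes (53.5% of all genes tested), with a median log2 fold change of −0.33. The median was −0.20 without replicate 1 and −0.21 without replicate 2 of day 14. *Psat1*, the aminotransferase of serine synthesis that uses glutamate, had 25.0, 16.8 and 18.4 FPKM on day 10 and 5.90, 12.7 and 5.91 FPKM on day 14. The days did not overlap, and its log2 fold change was −1.36 (standard error 0.31, unadjusted p = 0.00226 and adjusted p = 0.301 from limma). It was −1.73 without replicate 2 of day 14 (adjusted p = 0.0761 from limma). *Phgdh*, which starts serine synthesis, had 9.20, 4.37 and 3.24 FPKM on day 10 and 1.97, 3.75 and 2.30 FPKM on day 14, with overlap (log2 fold change −0.95, or −0.53 without replicate 1 of day 10, limma's adjusted p = 0.496 with all samples). The unadjusted p of *Psat1* was under 0.05 in 14 of the 14 other settings and that of *Phgdh* in 5. *Mthfd2*, a mitochondrial folate enzyme named after its values were seen, was lower at an unadjusted p under 0.05 (27.1 and 15.7 FPKM, log2 fold change −0.85, adjusted p = 0.403 from limma), and its difference was −0.56 without replicate 1 of day 14. In all, 3 of the 15 genes were lower at that threshold (4.40% of all genes tested).

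**Figure D4:**
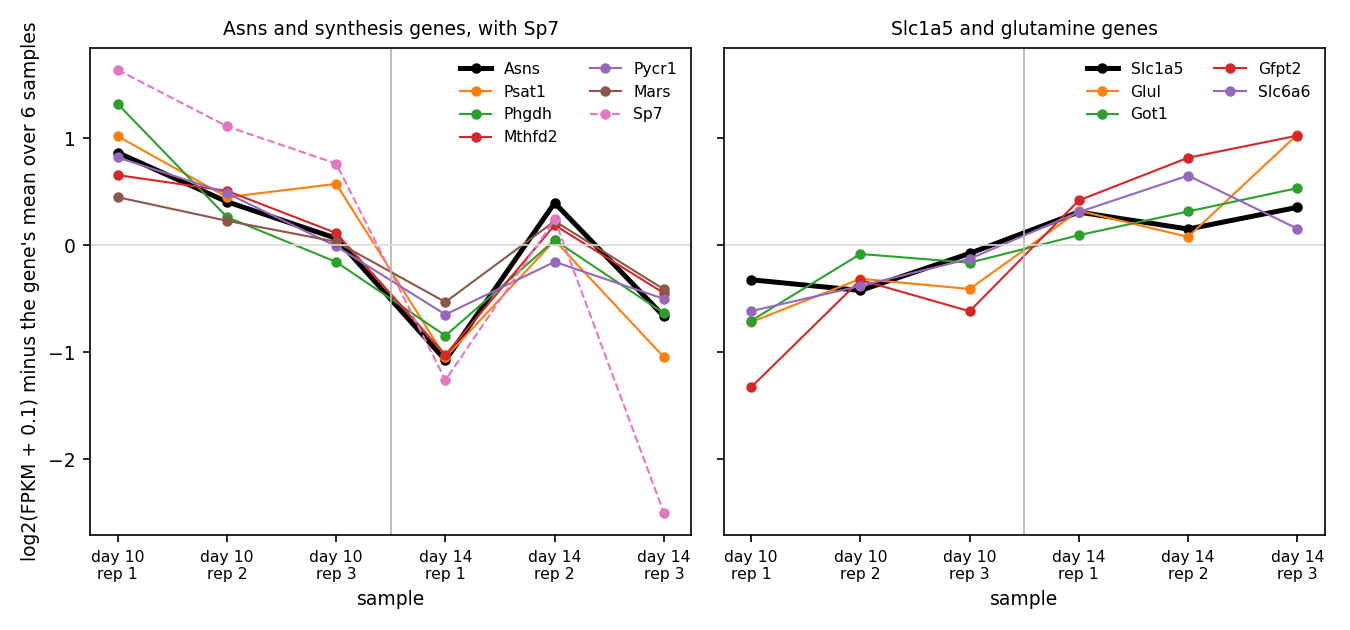
Values of single genes in each sample as log2(FPKM + 0.1) minus the gene's mean over the 6 samples, for *Asns* with genes of serine, folate, proline and tRNA charging (left, with *Sp7* dashed) and for *Slc1a5* with glutamine genes and *Slc6a6* (right). Lines only join the values of a gene, since replicates have no order. On the left, replicate 2 is the highest sample of day 14 for each gene. On the right, all day 14 samples of *Slc1a5*, *Glul*, *Got1*, *Gfpt2* and *Slc6a6* are above all their day 10 samples. *Got1*, *Gfpt2* and *Slc6a6* were picked from genes with separated days, so their separation was fixed by that choice. In the full group, 8 of 22 glutamine and glutamate genes were separated and higher on day 14.

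Cytosolic aminoacyl-tRNA synthetases, which load amino acids onto tRNAs, had lower means on day 14 for 18 of 20 genes, against 53.5% of all genes tested, with a median log2 fold change of −0.27. The unadjusted p was under 0.05 for 1 of the 20 genes (4.40% of all genes tested in this direction), *Gars* (117 ± 15.9 and 89.0 ± 10.7 FPKM, SD, n = 3 each, adjusted p = 0.495 from limma), and the days did not overlap for 4 genes, *Gars*, *Cars*, *Tars* and *Sars*, all lower on day 14 (6.67% of all genes tested). Much of the difference lay in replicate 1 of day 14. This sample held the lowest value of 17 of the 20 genes (85.0%, against 16.6% of all genes), and without it the median was −0.11, with 15 of 20 means lower. Without replicate 2 of day 14 the median was −0.40, and 6 of 20 genes were lower at an unadjusted p under 0.05, while the share of all genes in that fit was 5.92%. As for *Asns*, the pattern over samples was shared, with an r above 0 to *Asns* for 19 of 20 synthetases (44.4% of all genes).

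The GCN2 and ATF4 amino acid response was not of a piece. Of 22 genes tested, 11 had higher and 11 lower means on day 14, with a median log2 fold change of 0.03. Its sign turned in 5 of 14 other settings, with −0.15 without replicate 2 of day 14. *Atf4* itself had 88.5, 95.8 and 95.6 FPKM on day 10 and 101, 134 and 108 FPKM on day 14, higher in all 3 day 14 samples (log2 fold change 0.28, standard error 0.16, adjusted p = 0.607 from limma), or 0.16 without replicate 2 of day 14. The phosphatase subunit *Ppp1r15b* was higher at an unadjusted p under 0.05, with 17.5 ± 1.89 and 24.5 ± 4.70 FPKM (SD, n = 3 each, adjusted p = 0.442 from limma). *Chac1* and the lipoprotein receptor *Vldlr*, both named after their values were seen, were lower at an unadjusted p under 0.05. *Chac1* had 13.8, 6.93 and 9.33 FPKM on day 10 and 0.803, 9.15 and 1.25 FPKM on day 14, low in the same 2 day 14 samples as *Asns* (log2 fold change −2.12, adjusted p = 0.422 from limma).

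Among other amino acid transporters of the plasma membrane, 24 of 28 passed the filter on low values. Of these, 10 had higher and 14 lower means on day 14 (46.5% and 53.5% of all genes tested). The taurine importer *Slc6a6* had 11.5, 13.6 and 16.2 FPKM on day 10 and 22.0, 27.9 and 19.7 FPKM on day 14, with all day 14 samples above (log2 fold change 0.75, standard error 0.20, adjusted p = 0.319 from limma). *Slc43a1*, a carrier of large neutral amino acids, was also apart between the days, with 9.87 and 11.4 FPKM and an adjusted p of 0.761 from limma (log2 fold change 0.21, or 0.10 without replicate 1 of day 10). *Slc36a2*, a proton-coupled carrier of glycine, alanine and proline, was named after its values were seen as the transporter over 2-fold. It had 99.3, 84.7 and 32.4 FPKM on day 10 and 20.2, 41.9 and 5.03 FPKM on day 14, and the days overlapped (log2 fold change −1.99, standard error 0.72, unadjusted p = 0.0232 and adjusted p = 0.418 from limma). It was −1.16 without replicate 3 of day 14 (unadjusted p = 0.0670 from limma) and −2.67 without replicate 2 of day 14.

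Of 12 lysosomal and mitochondrial amino acid carriers, 9 had lower means on day 14 (53.5% of all genes tested), or 5 of 12 without replicate 3 of day 14. The days did not overlap for 2 lower genes (6.67% of all genes tested) and 1 higher gene (7.59%). *Pqlc2*, which exports cationic amino acids from lysosomes, had 7.25 ± 1.82 and 4.43 ± 0.712 FPKM (SD, n = 3 each) without overlap (log2 fold change −0.68, adjusted p = 0.425 from limma). *Sfxn1*, a mitochondrial serine carrier, had 18.5 and 15.4 FPKM, and *Slc25a12*, an aspartate and glutamate carrier of mitochondria, had 7.08 and 9.57 FPKM, both without overlap and with unadjusted p of 0.116 and 0.0754 from limma. The log2 fold change of *Slc25a12* was 0.46, or 0.24 without replicate 1 of day 10.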

How the data were processed

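RNA-seq of ECFP+ OBs was analysed in 6 samples, 3 of day 10 and 3 of day 14, grouped by the labels. Single-end reads of 75 bases were aligned by the authors to mm10 using TopHat2 2.0.13, Bowtie2 2.2.3 and SAMtools 0.1.19, and FPKM per gene were computed with Cufflinks 2.2.1 and deposited as 1 list per sample. The gene annotation and the handling of multi-mapped reads are not given in the sources used here. Gene symbols turned into dates (25, in 1 list) were restored by position. Older symbols were matched through RefSeq synonyms.

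Genes with a mean above 0.1 FPKM were tested as log2(FPKM + 0.1) with limma 3.58.1 in R 4.3.3 (lmFit, eBayes with a mean-variance trend, day as the only factor), with Benjamini-Hochberg adjustment over all genes tested. Fold changes are on that scale, which understates those of low genes. FPKM are not counts, so no count model was used. Depth was estimated from 1977 genes with a single transcript of 1500 to 8000 bases and a fragment length of 215 bases. Between 74.7% and 79.5% of values up to 0.3 FPKM were within 0.1 of a whole read. Positions are from GENCODE vM21, and the reads of a gene assume its longest transcript. The fit was tested on simulated data. Alternatives were other pseudocounts, filters, scalings and variance models, a replicate block and leaving out each sample with the same genes tested.

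The members and gene lists were chosen with earlier results of these data known. Genes named are the 9 members, fixed partners (*Atf4*, *Glul*, *Glud1*, *Phgdh*, *Psat1*, *Slc7a6* and *Slc7a8*), OB and other cell markers, the 6 light chains of *Slc3a2* and the gene most like each member. From each list, up to 4 genes with the smallest p were added, provided that the mean was 1 FPKM or more and the days were separated. Others are marked as named after their values were seen. Some listed genes are not reported here.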

Additional observations from a re-analysis of the deposited data

How the results depend on the processing

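No member had an adjusted p under 0.05 in any of the 14 alternatives. Of 284 alternative values, 9 turned the sign of a member's difference and 16 moved a list median by over 1 SD or a count by over 1.5 times. The list medians near 0 turned sign in 5 of 14 settings for the amino acid response (−0.15 to 0.17) and in 2 of 14 for mTORC1 (−0.046 to 0.047). The log2 fold change of *Slc38a2* turned sign with samples scaled to the same FPKM sum (−0.024) or by median of ratios (−0.019). Leaving out 1 sample each gave −0.26 to 0.16 for *Slc38a2*, −0.038 to 0.29 for *Slc3a2*, −0.053 to 0.39 for *Slc7a1* and −0.44 to 0.15 for *Slc7a5*, and list medians of 0.15 to 0.34 for glutamine and glutamate enzymes and −0.25 to 0.017 for lysosomal and mitochondrial carriers (−0.031 without day 10 replicate 1 and 0.017 without day 14 replicate 3). The median of serine, glycine and one-carbon genes was −0.16 with a pseudocount of 1. Over all genes, 748 were over 2-fold with an unadjusted p under 0.05. This count was 363 with a pseudocount of 1, 476 with a mean above 1 FPKM, and 433 to 1677 without 1 sample (433 without day 10 replicate 1, 1677 without day 14 replicate 1 and 1292 without day 14 replicate 2). Genes with an adjusted p under 0.05 were 3, and 3 to 8 without 1 sample (5 without day 10 replicate 2 or replicate 3, 8 without day 14 replicate 2). With the filter reapplied to the samples left, an alternative chosen after seeing the data, they were 3 to 76 (5 without day 10 replicate 2, 6 without day 10 replicate 3 or day 14 replicate 1, and 76 without day 14 replicate 2), with 0 members among them. The cause was not tested. Above a mean of 1 FPKM, *Slc7a11* and *Slc38a1* were filtered out and have no value. In the fit with a replicate block, 2 genes passed an adjusted p of 0.05, 839 were over 2-fold with an unadjusted p under 0.05, and *Asns* (−0.89, adjusted p = 0.412 from limma) and *Slc1a5* (0.55, adjusted p = 0.264 from limma) were on the same side of the threshold. Deviations of same-numbered samples had an r across genes of 0.058, −0.0058 and 0.089, so the numbers were not taken as pairs. Depth limits *Slc7a11* and *Slc38a1* most.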

Other observations

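Glutathione synthesis lies downstream of cystine import by *Slc7a11* and of glutamate, and its genes were listed together with targets of NRF2. Of this list, 10 of 12 genes had higher means on day 14 (46.5% of all genes tested). The median log2 fold change was 0.43 (−0.04 over all genes tested), and between 0.30 and 0.57 over 14 other settings. At an unadjusted p under 0.05 from limma, 4 genes were higher (5.60% of all genes tested) and 1 was lower (4.40%). The lower gene was *Chac1*, with a log2 fold change of −2.12. None of the 12 had an adjusted p under 0.05 from limma. *Srxn1*, a sulfiredoxin known as a target of NRF2, had 67.6, 90.5 and 98.3 FPKM on day 10 and 122, 148 and 205 FPKM on day 14 (log2 fold change 0.87, limma's adjusted p = 0.319). *Nfe2l2*, which encodes NRF2, had 38.0, 51.2 and 45.5 FPKM on day 10 and 65.5, 59.5 and 74.0 FPKM on day 14 (log2 fold change 0.57, limma's adjusted p = 0.340). The subunits of glutamate cysteine ligase, *Gclc* (4.65 and 9.45 FPKM) and *Gclm* (10.5 and 14.3 FPKM), were also above all day 10 samples in all 3 day 14 samples, at adjusted p of 0.407 and 0.517 from limma. The log2 fold change of *Gclm* was 0.46, or 0.28 without replicate 1 of day 10. *Hmox1*, named after its values were seen, had overlapping days (216 to 331 and 318 to 674 FPKM), with a log2 fold change of 0.68, or 0.40 without replicate 2 of day 14.

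Genes of mTORC1, the kinase complex that senses amino acids, were mixed, with 17 of 35 means higher and 18 lower on day 14 and a median log2 fold change of 0.00. *Fnip1*, a partner of folliculin, was higher on day 14 (4.49 ± 0.969 and 8.39 ± 1.54 FPKM, SD, n = 3 each, adjusted p = 0.319 from limma), as was *Rheb*, the GTPase that activates the complex (61.8 ± 6.70 and 87.8 ± 9.93 FPKM, SD, n = 3 each, adjusted p = 0.361 from limma). *Nprl2*, a subunit of the GATOR1 complex that inhibits mTORC1, was lower (6.80 ± 2.76 and 3.13 ± 0.450 FPKM, SD, n = 3 each, adjusted p = 0.353 from limma). *Sec13*, shared by the COPII coat and by GATOR2, which opposes GATOR1, was also lower (235 ± 55.4 and 151 ± 34.7 FPKM, SD, n = 3 each, adjusted p = 0.422 from limma). These 4 genes were named because the samples of their days did not overlap. Of the 35 genes this was so for 6 higher genes (7.59% of all genes tested) and 6 lower genes (6.67%).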
